A study of Mus musculus with 18 samples.

Results

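Mouse leukemia cells transformed by MLL-AF6 were compared after 6 days in MI-2-2 or in its solvent DMSO, 3 libraries against 3. The genes described are those that reached 1 RPKM (reads per kilobase of transcript and per 1000000 counted reads) in 3 or more of these 6 libraries, 10514 of the 23418 genes in the authors' table. The cells are of strain C57BL/6, both groups carry the MLL-AF6 construct, and the labels call the cell type mixed lineage leukemia. Treated wells held 6 µM MI-2-2 and control wells DMSO alone, both at 0.25% DMSO, and on day 3 the medium was replaced, the density of viable cells was set back and compound or solvent was added anew. MLL-AF9 and MLL-AF1p cells of the same strain, with the same 2 treatments, make up the other 12 of the 18 libraries and serve here to test whether the response differed between constructs. The vector, the cells that were transformed and the number of clones are not given in the sources used here. Each group has replicates numbered 1 to 3, and no source used here says that these came from different cultures. The p-values therefore reflect variation among these libraries alone, some or all of which may be technical.

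MLL fusion proteins keep the amino-terminal part of MLL, which binds menin, and menin helps to hold them at genes of early blood progenitors such as the HoxA cluster and Meis1. MI-2-2 sits in the pocket of menin that MLL occupies. AF6, also called afadin, is an adaptor protein of cell junctions, and the MLL-AF6 fusion is one of the recurrent lesions of acute myeloid leukemia, in which progenitors keep dividing instead of maturing into granulocytes and macrophages.

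Values given in threes are RPKM in replicates 1, 2 and 3. A fold change is the difference of mean log2(RPKM + 0.5) between MI-2-2 and DMSO with its standard error, which understates the change of genes near 0, and "rose" and "fell" are kept for genes with a Benjamini-Hochberg adjusted p under 0.05 in limma over all 11238 genes tested. Among the 10514 genes, 1895 rose (18%) and 4199 fell (39.9%), close to the 18% and 38.9% of all 11238 genes tested, so a call alone sets no gene apart. The rises were larger. Rises of at least 1 on the log2 scale numbered 634 (6.03%), against 376 falls of that size (3.58%), and changes of at least 3 numbered 130 rises (1.24%) and 12 falls (0.114%). The median fold change of all 10514 genes was −0.163, and the middle of the called rises and falls lay at 0.65 and −0.45.

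**Figure D1:**
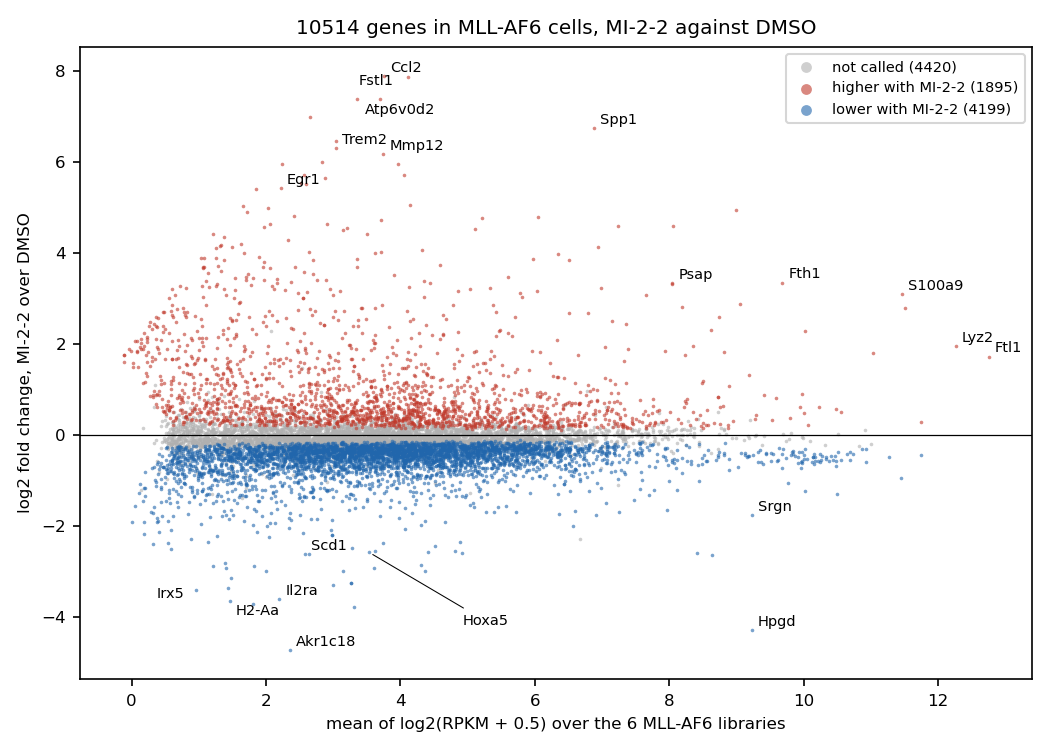
Each dot is 1 of 10514 genes in MLL-AF6 cells, with the mean of log2(RPKM + 0.5) over 6 libraries on the x axis and the log2 fold change, MI-2-2 over DMSO, on the y axis. Red dots are the 1895 genes that rose, blue dots the 4199 that fell and grey dots the rest. Rises reach 7.90 (Ccl2) and falls −4.74 (Akr1c18).

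The split between rises and falls depended on the scaling. A few very abundant genes took more of the treated libraries: the 10 highest genes held 4.37 to 4.7% of counted reads with DMSO and 7.72 to 8.82% with MI-2-2. Rises made up 31.1% of called genes as given, 41.3% with each library centred on its median (2288 rises and 3253 falls, median of all 10514 genes −0.08), 39.2% with quantile normalization (2184 and 3389) and 40.3% when the libraries were scaled without the 50 genes with the most reads (2244 and 3327). No gene turned from a called rise to a called fall, or back, under any of these.

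Depth was 27.94 to 30.25 M counted reads (M: 1000000) with DMSO and 21.97 to 30.67 M with MI-2-2, and 10257 to 10347 genes per library reached 1 RPKM. The first principal component held 85.9% of the variance between the 6 libraries and separated the treatments. The second held 9.8% and set DMSO replicate 1 (21.25) apart from DMSO replicate 2 (−19.25), with MI-2-2 replicates 1 (8.96) and 2 (−13.47) in the same order. All 6 listed leukocyte markers were above 1 RPKM in every library, while the listed markers of T cells, B cells, NK cells, red cells, platelets and eosinophils summed to at most 5.12 RPKM per list in any library. Those of mast cells and basophils, mostly Mcpt8, summed to 13.5 to 35.2 RPKM with DMSO and 5.6 to 8.29 with MI-2-2. Those of dendritic cells summed to 52.9 to 63.4 and 87.9 to 97.4. Most of this was Bst2 (50.6, 62.0 and 57.7, and 82.7, 74.2 and 83.9), which is also in the interferon-stimulated list. The part of these 2 marker lists in the results was not tested. Of the fibroblast list, 6 of 8 genes were under 0.1 RPKM in all 6 libraries and its sum, 704 to 1300 with DMSO and 112 to 214 with MI-2-2, was almost all Thy1, a surface protein that T cells and some progenitors also carry. In RNA of whole cultures, fewer cells of a type and less RNA per cell cannot be told apart.

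Most of the genes were active in both states. Of 10514, 9668 were at 1 RPKM or more in all 6 libraries, 227 reached it only in the 3 MI-2-2 libraries and 157 only in the 3 DMSO libraries. The last 2 classes were bound to differ by the way they were picked. The same limit holds for each gene named below with 3 values under 1 RPKM in 1 group and 3 of at least 1 in the other. The p-value of such a gene adds no support, also where its list does not say so. Counts of lists include such genes too. Cdkn1c, Gpx8, Hpgds, Mpo, Itgax, Itgb7 and Plk2 are among these genes. Genes of 1 to 10 RPKM with DMSO rose in 17.6% and fell in 35.1% of cases, and genes of at least 100 RPKM rose in 19.2% and fell in 46.6%.

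The genes are described below by 52 lists of related function, and each count of a list is to be read against the 18% that rose and 39.9% that fell among all 10514. Counts of responses that differed between constructs also have a share over all 10514 genes. Against MLL-AF9 cells 8.36% were more positive and 24.9% more negative in MLL-AF6 cells, and against MLL-AF1p cells 11.7% and 20.1%. The plot of the lists shows every gene of each. The lists of specific granules, lysosomes, macrophage lipid and iron handling, chemokines and immediate early genes have medians above 0, while HoxA, ribosome biogenesis and interferon-stimulated genes have medians below 0.

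**Figure D2:**
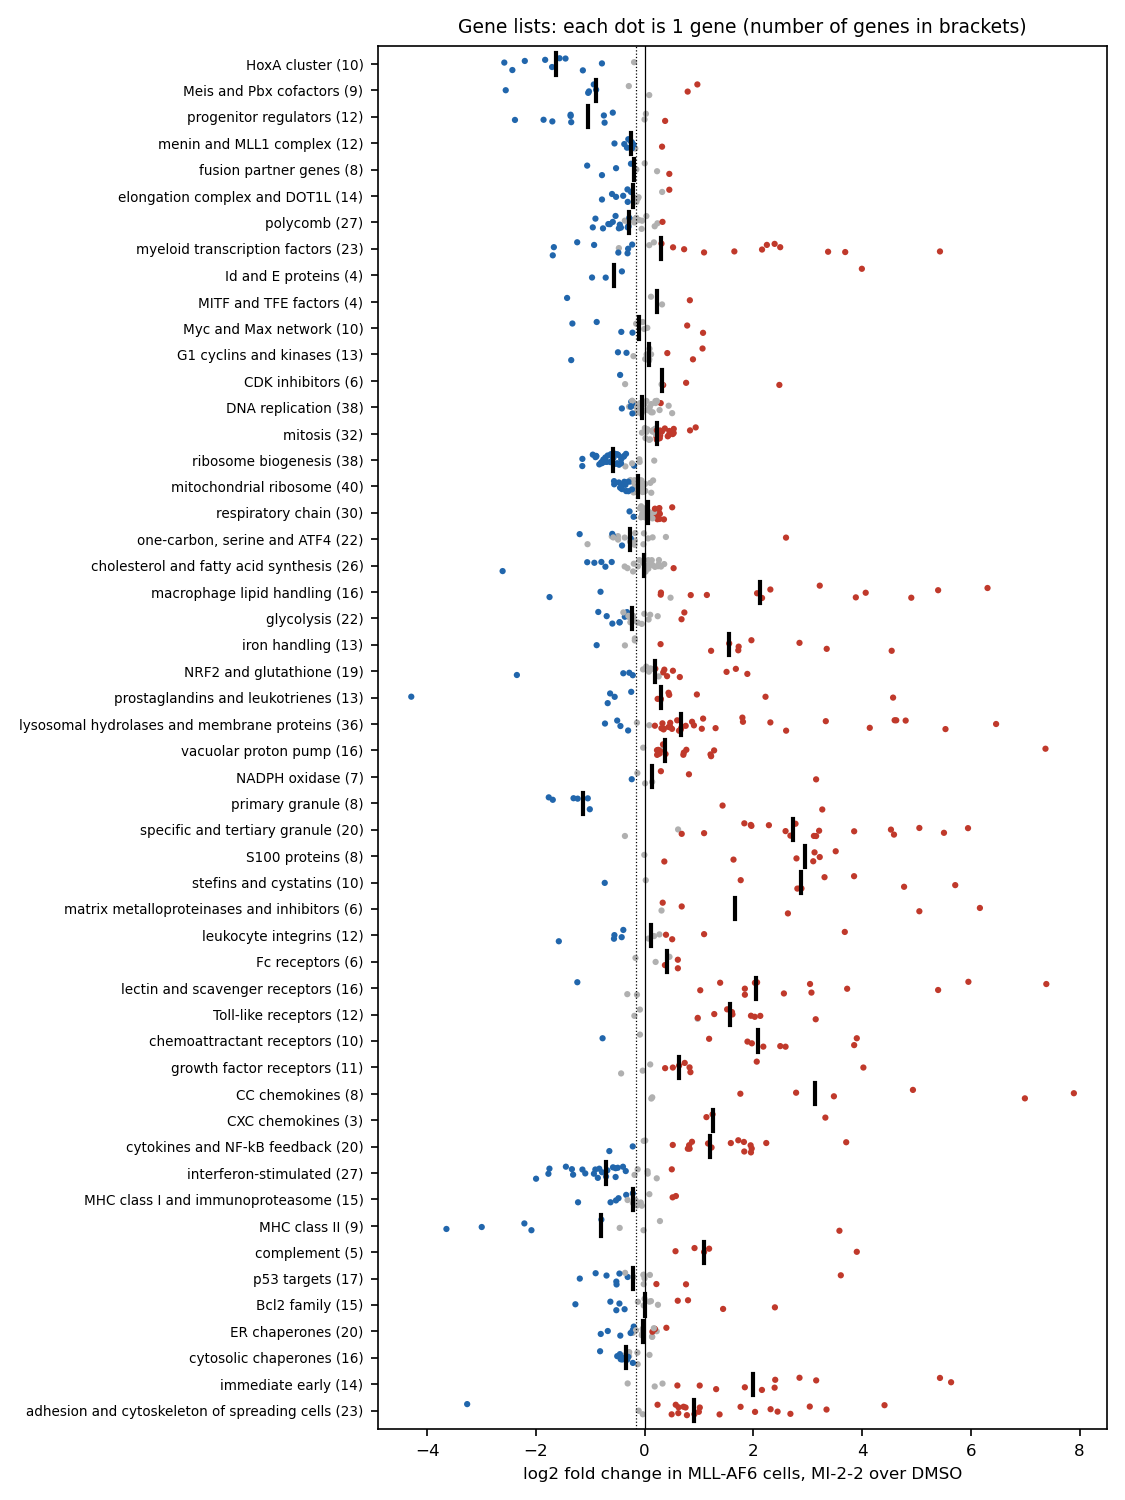
Each row is 1 gene list, each dot the log2 fold change of 1 gene in MLL-AF6 cells, red for a rise, blue for a fall and grey for neither, and the black bar the median of the list. The dotted line is the median of all 10514 genes (−0.163). List medians run from −1.63 (HoxA cluster) to 3.13 (CC chemokines).

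The genes that MLL fusions are known for fell, and the HoxA cluster fell over most of its length. Of 10 HoxA genes, which encode transcription factors that keep progenitors immature, 9 fell and none rose, with a median of −1.63, and 2 of the 10 were included only through the DMSO libraries. Hoxa5 was at 30.8, 25.1 and 27.9 with DMSO and at 3.52, 4.36 and 4.92 with MI-2-2 (−2.58 ± 0.12, limma adjusted p = 9.31e-11). Hoxa6 went from 17.4, 16.2 and 15.8 to 2.84, 3.51 and 3.23 (−2.21 ± 0.17, limma adjusted p = 2.47e-08). The groups did not overlap for either gene, and the highest treated library was far under the lowest control. Hoxa3 fell from 9.66, 8.66 and 8.81 to 2.09, 2.23 and 2.22 (−1.83 ± 0.13, limma adjusted p = 1.17e-08), and Hoxa7, the smallest called fall of the cluster, went from 9.29, 8.23 and 7.95 to 4.07, 5.41 and 4.71 (−0.79 ± 0.14, limma adjusted p = 1.95e-04). Hoxa11 showed the second largest fall (−2.43), from 56.6, 51.1 and 50.3 to 9.1, 8.72 and 10.2, but the kit does not mark the strand and an antisense gene overlaps it, so the reads of the pair cannot be told apart. The median of the same 10 genes was −0.60 in MLL-AF9 cells and −1.16 in MLL-AF1p cells, and 7 and 5 of the 10 fell further in MLL-AF6 cells than in those (limma, adjusted p under 0.05 for the difference).

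The partners of HOX proteins moved unevenly. Of 9 Meis and Pbx family genes, 5 fell and 2 rose, Meis3 and Tgif1. Among the 9, 1 was included only through the treated libraries and 1 only through the DMSO libraries. Pbx3, a cofactor that binds DNA with HOXA9, fell from 13.4, 8.59 and 9.97 to 5.52, 4.26 and 6.06 (−0.94 ± 0.15, limma adjusted p = 6.98e-05). Pknox1, a Meis-like cofactor, fell from 7.26, 7.43 and 7.6 to 3.14, 3.97 and 3.14 (−1.03 ± 0.086, limma adjusted p = 8.41e-08), whereas Pknox2 overlapped between the groups (15.2, 9.97 and 12.3 and 11.2, 8.07 and 11). In MLL-AF9 cells the response of Pknox1 was −0.05 and not called, and the difference passed the test (limma, adjusted p = 3.38e-05).

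Among 12 other regulators of progenitors, 9 fell and 1 rose, with a median of −1.05, and the remaining 12 of the 24 listed were under the level needed to be included. One filter limit applies: 1 gene was included only through the DMSO libraries. Msi2, an RNA-binding protein of stem cells, fell from 10.4, 9.41 and 10 to 3.67, 3.73 and 3.28 (−1.36 ± 0.079, limma adjusted p = 1.18e-09). The 3 values within each group lay close together. Kit was the rise of this list.

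Genes of the menin complex itself fell a little. Of 12 genes for menin, MLL1 and their shared subunits, 10 fell and 1 rose, with a median of −0.24 that is close to the −0.163 of all genes, and with median centring 7 fell. The rise, Ctnnb1 for beta-catenin, lost its call without DMSO replicate 2 or 3 or MI-2-2 replicate 1 or 3 (0.26 to 0.32). Men1 was at 8.46, 6.31 and 8.08 with DMSO and 4.9, 4.76 and 5.3 with MI-2-2 (−0.56 ± 0.11, limma adjusted p = 5.43e-04), and Kat8, a histone acetyltransferase, at 16.2, 11.9 and 13.1 and 11.7, 9.47 and 10.1 (−0.38 ± 0.100, limma adjusted p = 0.0047). Both sets of values were separate and the steps small. Of the fusion partner genes, Mllt1, which encodes the ENL reader of acetylated histones, fell from 16.6, 14.2 and 16 to 8.77, 9.19 and 8.56 (−0.79 ± 0.060, limma adjusted p = 2.79e-08), and Mllt6 rose from 4.05, 3.84 and 4.25 to 5.97, 5.19 and 6.05 (0.45 ± 0.10, limma adjusted p = 0.00175). Reads of the construct may be counted in Mll1 and Mllt4. Of 27 polycomb genes, whose products silence HOX genes, 13 fell and 1 rose, and the falls were led by Jarid2 (from 8.13, 7.22 and 8.12 to 3.58, 4.22 and 3.6, −0.95 ± 0.072, limma adjusted p = 2.47e-08) and Pcgf5 (−0.91).

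Transcription factors of myeloid fate moved in both directions. Of 23, 12 rose and 8 fell, and 4 of the 23 were included only through the treated libraries and 1 only through the DMSO libraries. Cebpa, which drives entry into the granulocyte line, fell from 225, 130.3 and 174 with DMSO to 53.7, 53.2 and 54.4 with MI-2-2 (−1.67 ± 0.14, limma adjusted p = 1.03e-07). Gfi1, a repressor that shapes neutrophil precursors, fell from 86.7, 98.2 and 97 to 25.1, 36.1 and 26.1 (−1.69 ± 0.11, limma adjusted p = 6.92e-09). Neither pair overlapped. Cebpe, needed for specific granules, rose from 32.3, 23.4 and 30.9 to 56.8, 73 and 56.1 (1.09 ± 0.14, limma adjusted p = 1.03e-05).

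The largest rises of the list were factors of monocytes and macrophages. Egr1, an early response factor that also favours the monocyte line, was almost silent with DMSO (0.172, 0.218 and 0.233) and stood at 28.7, 31.3 and 30.2 with MI-2-2 (5.43 ± 0.17, limma adjusted p = 5.26e-13). Maf, a factor of resident macrophages, went from 0.0363, 0.107 and 0.128 to 7.75, 7.81 and 5.89 (3.69 ± 0.17, limma adjusted p = 5.62e-11), and Klf4 from 0.13, 0.209 and 0.176 to 5.39, 7.7 and 6.46 (3.37 ± 0.16, limma adjusted p = 9.89e-11). Rxra, a nuclear receptor that pairs with lipid sensors, rose from 0.808, 1.63 and 1.06 to 8.75, 8.75 and 8.58 (2.49 ± 0.15, limma adjusted p = 1.65e-09). The treated values of Rxra were nearly equal and well above every control. Sfpi1, the gene of the master factor PU.1, was not called, at 282, 198 and 238 and 270.4, 256 and 274 (0.17 ± 0.090, limma adjusted p = 0.119), but was called higher with median centring (0.25) and without DMSO replicate 1 (0.29). Irf8, which steers progenitors to monocytes and dendritic cells, rose by 0.73 here and by 3.56 in MLL-AF9 cells. Its starting level differed: the means with DMSO and MI-2-2 were 21.5 and 35.0 RPKM here and 0.680 and 13.2 in MLL-AF9 cells.

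Of 4 Id and E protein genes 3 fell, and Id2 rose. Id1, an inhibitor of helix-loop-helix factors, fell from 134, 145 and 146 to 64.4, 84.2 and 69.1 (−0.97 ± 0.099, limma adjusted p = 8.29e-07), and the E protein gene Tcf12, whose product Id proteins bind, fell from 5.75, 6.28 and 5.67 to 3.42, 3.38 and 3.37 (−0.72 ± 0.086, limma adjusted p = 4.34e-06). Of the MITF family, which switches on lysosome genes, Tfeb rose from 3.09, 3.02 and 3.27 to 5.75, 6.17 and 5.92 (0.83 ± 0.073, limma adjusted p = 1.31e-07) and Tfec fell from 307, 271 and 299 to 118, 102 and 105 (−1.43 ± 0.15, limma adjusted p = 1.11e-06).

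**Figure D3:**
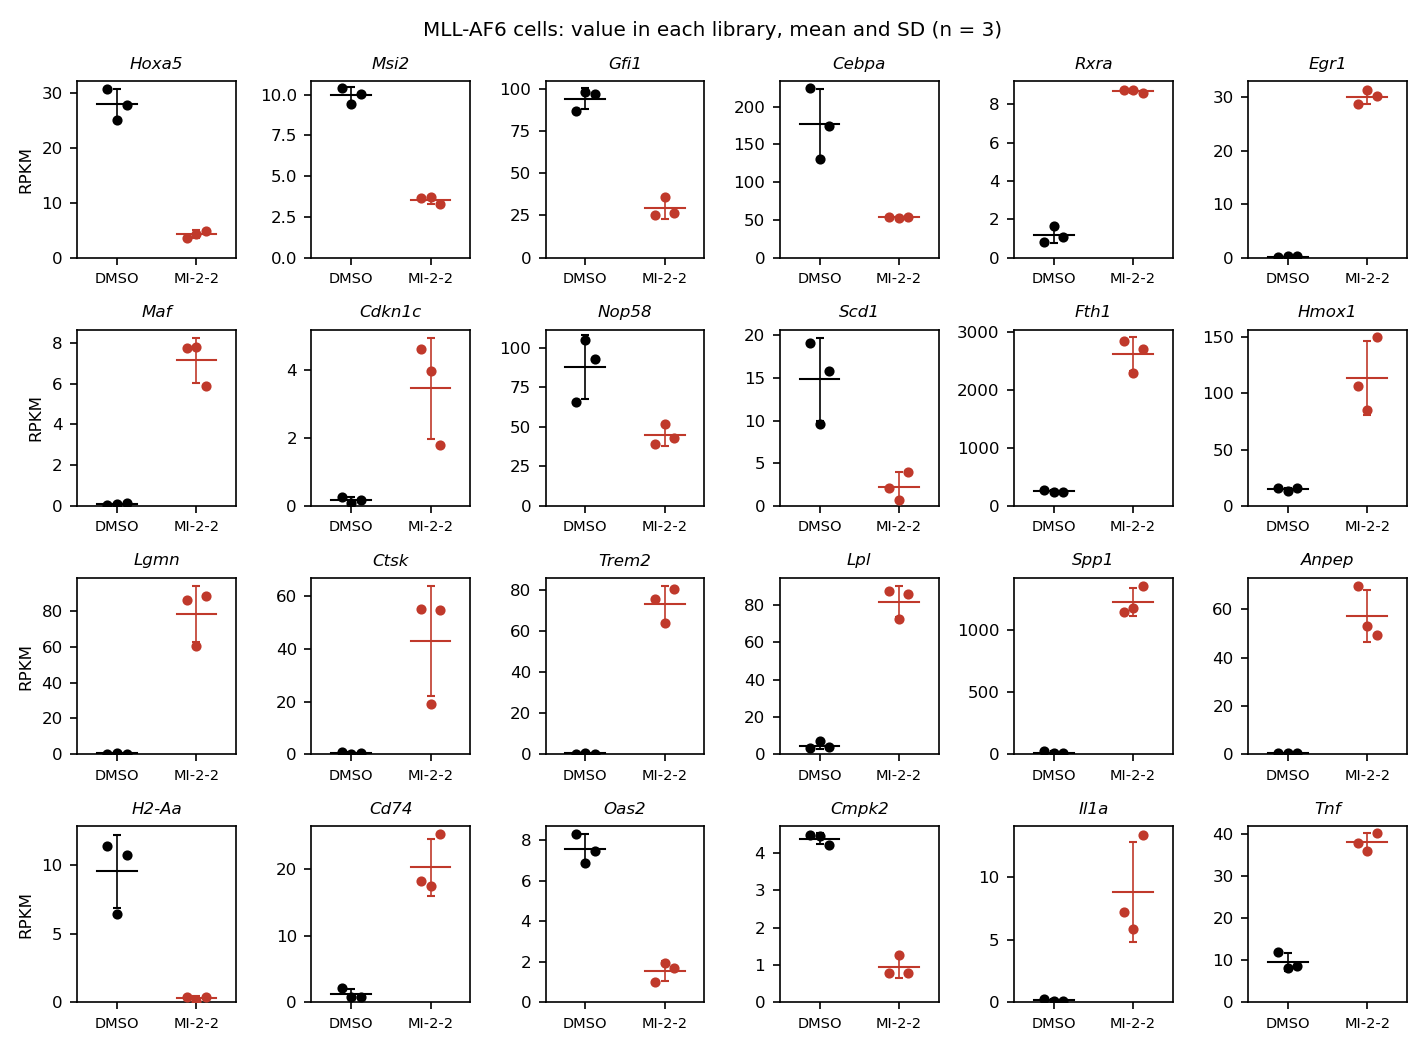
RPKM of 24 genes in each MLL-AF6 library, DMSO in black and MI-2-2 in red, each panel with its own axis from 0. Horizontal lines are means and bars SD (n = 3). In none of the panels do the groups overlap.

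Among the cell cycle lists, that of mitosis held no fall. Of 32 genes of mitosis 18 rose and none fell, with a median of 0.22, and the count was 13 to 21 when single libraries were left out. Across the list, replicate 2 differed from replicate 1 by a median of −0.13 on the log2 scale with DMSO and 0.22 with MI-2-2. The shift with MI-2-2 was as large as the treatment effect, and its part in the result was not tested. Kif23, a motor of the dividing cell's midbody, went from 9.22, 8.81 and 9.22 to 16, 20.3 and 17.6 (0.94 ± 0.10, limma adjusted p = 1.65e-06), and Ccna2, cyclin A, from 28.2, 29.4 and 29.1 to 36.9, 48.5 and 41.5 (0.53 ± 0.11, limma adjusted p = 5.45e-04). Both rises were small beside those of macrophage genes, yet the groups did not overlap. Of 38 genes of DNA replication 6 fell and 1 rose, which became 1 and 3 with median centring, so no direction is given for that list.

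Inhibitors of cyclin-dependent kinases gave 3 rises and 1 fall among 6. Cdkn1c, the p57 inhibitor, was near 0 with DMSO (0.249, 0.0917 and 0.186) and at 4.61, 3.98 and 1.79 with MI-2-2 (2.48 ± 0.21, limma adjusted p = 7.72e-08). It fell in MLL-AF9 cells (−0.98), where its means with DMSO and MI-2-2 were only 0.795 and 0.158 RPKM. Cdkn1b, the p27 inhibitor, fell from 38.3, 33.2 and 32.9 to 25.7, 24.5 and 25.6 (−0.45 ± 0.071, limma adjusted p = 6.22e-05), and Cdkn1a, the p21 inhibitor and a p53 target, overlapped between the groups (−0.36 ± 0.16, limma adjusted p = 0.061) and was called lower without DMSO replicate 1 (−0.56). Of 13 genes of G1 cyclins, kinases and related factors 3 rose and 3 fell, with changes from −1.35 to 1.06, and 1 was included only through the treated libraries. The largest rise was E2f2, a factor of the G1 to S step, from 9.41, 6.24 and 8.72 to 18, 15.5 and 18.5 (1.06 ± 0.15, limma adjusted p = 1.98e-05).

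In the Myc and Max network 4 of 10 genes fell and 2 rose. Myc, which drives growth and division, was called lower, at 12.2, 26.7 and 21.1 and 7.29, 13.7 and 10.2 (−0.88 ± 0.24, limma adjusted p = 0.00486), although DMSO replicate 1 lay below MI-2-2 replicate 2, and the call was lost when the 6 MLL-AF6 libraries were fitted alone (limma, adjusted p = 0.0542). Mxd1, which competes with Myc for the partner Max and rises in maturing myeloid cells, went from 15.3, 13.9 and 14.9 to 28.4, 33.1 and 33.1 (1.07 ± 0.083, limma adjusted p = 3.06e-08), while the related Mxd4 fell from 51.2, 45.7 and 51.2 to 20.3, 18.8 and 18.8 (−1.33 ± 0.11, limma adjusted p = 1.01e-07).

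Ribosome biogenesis genes fell together. Of 38, 33 fell and none rose, with a median of −0.58, and 28 to 35 fell under the other settings. Dkc1, the enzyme that makes pseudouridine in ribosomal RNA, was at 42.5, 61.2 and 56.1 with DMSO and 21.1, 26.8 and 22.9 with MI-2-2 (−1.15 ± 0.14, limma adjusted p = 6.76e-06). Nop58, a core protein of small nucleolar ribonucleoproteins, went from 65.8, 105 and 92.8 to 39.2, 51.6 and 42.7 (−0.95 ± 0.16, limma adjusted p = 1.51e-04), and Rcl1, a factor of small subunit assembly, from 23.2, 30.6 and 27.4 to 9.97, 12.9 and 13 (−1.15 ± 0.11, limma adjusted p = 2.91e-07). DMSO replicate 1 was the lowest control for all 3. Across the list, replicate 2 exceeded replicate 1 by a median of 0.54 on the log2 scale with DMSO and 0.25 with MI-2-2, beside the treatment effect of −0.58, and the part of this shift in the result was not tested. The response was more negative here than in MLL-AF1p cells for 26 of the 38 genes, where the median was 0.10, and than in MLL-AF9 cells for 4, where it was −0.46. For all 10514 genes these shares were 20.1% and 24.9%, so the 4 are below the share of all genes.

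Other growth genes changed less. Of 40 mitochondrial ribosome genes 13 fell and none rose (median −0.12), or 9 and 2 with median centring and 7 and 2 with quantile normalization. In this list replicate 2 exceeded replicate 1 by a median of 0.26 with DMSO and 0.17 with MI-2-2. Of 30 respiratory chain genes 10 rose and 2 fell (median 0.07), led by Sdhb, the iron-sulfur subunit of succinate dehydrogenase, from 59.9, 59.7 and 57.9 to 85.1, 82.4 and 85.2 (0.51 ± 0.050, limma adjusted p = 6.08e-07), and 21 of the 30 had a more positive response than in MLL-AF9 cells. Of 22 genes of serine, one-carbon and amino acid supply under ATF4, 5 fell and 1 rose. Replicate 2 exceeded replicate 1 by a median of 0.57 in both groups there, and 1 to 9 of the 22 fell when single libraries were left out. The gene that rose, Slc7a11, encodes the cystine importer that feeds glutathione synthesis, and it stood at 2.77, 2.66 and 2.79 and 21.7, 16.5 and 19.5 (2.6 ± 0.25, limma adjusted p = 4.23e-07).

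Of 13 genes of iron handling 9 rose and 1 fell (Tfrc, the transferrin receptor), with a median of 1.55, and 1 was included only through the treated libraries. Fth1, the ferritin heavy chain that oxidises iron for storage, was at 278, 244 and 248 with DMSO and 2853, 2299 and 2719.6 with MI-2-2 (3.35 ± 0.090, limma adjusted p = 1.07e-13). Hmox1, which frees iron from heme, rose from 15.5, 13.5 and 15.9 to 107, 85.1 and 149 (2.85 ± 0.27, limma adjusted p = 3.58e-07), and Slc11a1, an ion transporter of phagosomes, from 1.55, 1.57 and 1.11 to 45.2, 38.7 and 48 (4.54 ± 0.13, limma adjusted p = 2.16e-13). All 3 genes were separate by wide margins. Ftl1, the ferritin light chain, rose from 3587, 4052 and 3779.7 to 12895, 12468 and 12265, although ferritin pseudogenes can take up reads of both chains. Quantile normalization cut that rise to 0.65.

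The macrophage programme of lipid uptake rose with them. Of 16 genes 13 rose and 2 fell, with a median of 2.11, and 5 of the 16 were included only through the treated libraries. Trem2, a lipid-sensing receptor of macrophages, went from 0.324, 0.676 and 0.319 to 75.4, 63.7 and 80.4 (6.31 ± 0.13, limma adjusted p = 1.64e-14). Msr1, a scavenger receptor for modified lipoproteins, rose from 0.0258, 0.062 and 0.0837 to 20.8, 24.1 and 24.2 (5.4 ± 0.091, limma adjusted p = 1.80e-15), and Lpl, lipoprotein lipase, from 3.05, 6.81 and 4.01 to 87.4, 72.2 and 85.6 (4.07 ± 0.22, limma adjusted p = 5.95e-10). Ch25h, which makes the oxysterol 25-hydroxycholesterol, rose from 0.171, 0.0261 and 0.106 to 18, 15.7 and 18.7 (4.9 ± 0.15, limma adjusted p = 3.86e-13).

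Of 26 cholesterol and fatty acid genes 6 fell and 1 rose, or 6 and 6 with median centring, with a median of −0.01, so the list as a whole showed no direction. Among the 6 were 4 of fatty acid synthesis. Scd1, the desaturase that makes oleate, fell from 19.1, 9.59 and 15.8 to 2.15, 0.686 and 3.99 (−2.61 ± 0.44, limma adjusted p = 1.25e-04), and Scd2, its close paralog, from 168, 175 and 179.8 to 65.8, 74.3 and 119 (−1.06 ± 0.19, limma adjusted p = 2.49e-04). Fasn, fatty acid synthase, fell from 87.3, 76.7 and 91.5 to 48.7, 44.7 and 52.8 (−0.80 ± 0.14, limma adjusted p = 1.39e-04), and Elovl6, which lengthens fatty acids, from 8.46, 8.43 and 8.64 to 4.33, 4.09 and 4.31 (−0.93 ± 0.20, limma adjusted p = 0.00109). In MLL-AF1p cells the median of the 26 was 0.69, and 22 of the 26 had a more negative response in MLL-AF6 cells. Fasn rose in MLL-AF1p cells (0.81).

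Of 22 genes of glycolysis 7 fell and 2 rose, and 3 fell with median centring. Replicate 2 exceeded replicate 1 by a median of 0.35 with DMSO and 0.01 with MI-2-2, beside a treatment median of −0.24. Pfkm, a phosphofructokinase, fell from 4.9, 5.39 and 4.86 to 2.76, 2.41 and 2.56 (−0.85 ± 0.13, limma adjusted p = 4.00e-05), and Slc2a1, a glucose transporter, rose from 23.2, 28.9 and 26.1 to 40.3, 37.5 and 54.2 (0.73 ± 0.24, limma adjusted p = 0.0152). The call of Slc2a1 was lost without DMSO replicate 1 (0.65) or MI-2-2 replicate 3 (0.57).

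Antioxidant genes under NRF2 gave 9 rises and 4 falls among 19. Srxn1, which repairs oxidised peroxiredoxins, was at 8.35, 9.81 and 9.13 with DMSO and 32, 27.7 and 30.9 with MI-2-2 (1.68 ± 0.092, limma adjusted p = 5.68e-10). Prdx1, one of those peroxiredoxins, rose from 98.6, 75.3 and 86.4 to 352, 262 and 358 (1.89 ± 0.19, limma adjusted p = 7.12e-07), and Nqo1, a quinone reductase, from 2.84, 3.02 and 2.57 to 7.22, 11 and 8.79 (1.51 ± 0.17, limma adjusted p = 2.85e-06). None of these overlapped between the groups. Gpx8, a peroxidase of the endoplasmic reticulum, fell from 5.9, 3.78 and 3.97 to 0.768, 0.402 and 0.306 (−2.35 ± 0.26, limma adjusted p = 2.20e-06). The 2 windows that follow are from the promoters of genes of this list and show matches to the letters TGACNNNGC of the antioxidant response element, sought on both strands in the 300 bases from 250 before to 50 after each RefSeq start (GRCm38.p6). The match is in capitals and lies on the opposite strand of both genes.
Srxn1, chr2:152105527-152105573, plus strand: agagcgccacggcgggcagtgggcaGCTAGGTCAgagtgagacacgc
Prdx1, chr4:116685441-116685499, plus strand: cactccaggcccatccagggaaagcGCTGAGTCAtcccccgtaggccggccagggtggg
Of the 19 genes, 17 had a promoter entry and 7 of these (41.2%) held the letters, which occur in 14% of all 27025 genes with an entry and in 17.1% of the 8409 of these that were included. They did not all rise: Nfe2l2, Prdx1, Srxn1 and Txnrd1 rose, Sod1 fell and 2 were not called. A match describes these letters and no binding.

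Eicosanoid genes changed in both directions, with 7 rises and 5 falls among 13. Hpgds, which makes prostaglandin D, rose from 0.29, 0.439 and 0.195 to 20.2, 19 and 16.5 (4.57 ± 0.15, limma adjusted p = 7.11e-13), and Ltc4s, leukotriene C synthase, from 2.01, 0.656 and 1.09 to 11.6, 3.22 and 9.87 (2.22 ± 0.36, limma adjusted p = 8.62e-05). Replicate 2 was the lowest library of each group for Ltc4s. The large fall of Hpgd, which breaks prostaglandins down, was to 160.1, 106 and 145 from 2637, 2563 and 2766.

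Lysosome genes rose as a body. Of 36 genes of lysosomal enzymes and membrane proteins 30 rose and 4 fell, with a median of 0.67, and 26 to 30 rose under the other settings. Of the 36, 2 were included only through the treated libraries, Lgmn and Ctsk. The proteases led. Lgmn, an asparagine endopeptidase, was at 0.333, 0.449 and 0.36 with DMSO and 86.2, 60.4 and 88.2 with MI-2-2 (6.46 ± 0.16, limma adjusted p = 8.31e-14). Ctsk, the collagen-cleaving cathepsin of osteoclasts, went from 0.666, 0.119 and 0.336 to 55.2, 18.9 and 54.8 (5.53 ± 0.39, limma adjusted p = 1.17e-08), with replicate 2 the lowest of both groups. Ctsh rose from 0.546, 1.49 and 1.16 to 41.8, 29.9 and 40.1 (4.63 ± 0.20, limma adjusted p = 2.65e-11). Psap, the precursor of the saposins that help to break down sphingolipids, went from 80.7, 92.1 and 76.5 to 906, 762 and 854 (3.33 ± 0.084, limma adjusted p = 8.31e-14) and had the most counted reads of any gene in 2 of the 3 treated libraries. The response was more positive than in MLL-AF1p cells for 18 of the 36 genes and more negative for none, and against MLL-AF9 cells 11 were more positive and 5 more negative.

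The proton pump that acidifies lysosomes rose with them, 14 of 16 subunit genes and no fall, with a median of 0.37. Of the 16, 1 was included only through the treated libraries, Atp6v0d2. Atp6v0d2, a subunit of osteoclasts and macrophages, went from 0.527, 0.225 and 0.171 to 138, 126 and 129 (7.37 ± 0.16, limma adjusted p = 1.76e-14). The subunits that all cells use rose less: Atp6v1c1 from 54.5, 49.6 and 51.7 to 133, 119 and 128 (1.28 ± 0.086, limma adjusted p = 6.92e-09) and Atp6v1g1 from 98.2, 82.5 and 93.7 to 221, 198 and 217 (1.21 ± 0.079, limma adjusted p = 4.16e-09). Genes of these 2 lists are known for the letters TCACGTGA, the site of the TFEB and TFE3 factors, and 2 windows with a match in capitals are shown from genes chosen after their values were seen.
Ctsd, chr7:142387894-142387951, minus strand: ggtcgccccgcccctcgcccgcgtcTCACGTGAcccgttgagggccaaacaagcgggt
Atp6v1a, chr16:44139359-44139416, minus strand: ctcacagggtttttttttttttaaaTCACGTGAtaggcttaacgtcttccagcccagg
Ctsd, the aspartic protease of lysosomes, stood at 1306, 1024 and 1072 and 4109.6, 3538 and 4142 (1.8 ± 0.11, limma adjusted p = 1.39e-09), and Atp6v1a, the catalytic subunit of the pump, at 99.3, 89.2 and 90.7 and 174, 146 and 158 (0.77 ± 0.10, limma adjusted p = 1.64e-05). The letters were found in 4 of the 29 lysosome genes with a promoter entry (13.8%), in 1.12% of all 27025 and in 2.41% of the 8409 included genes with one. For the pump only 10 of 16 genes had an entry, too few for a share.

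Both membrane subunits of the oxidase that makes superoxide in phagosomes rose. Cybb, the catalytic subunit, rose from 27.8, 18.9 and 18.5 to 227, 139.6 and 230.0 (3.15 ± 0.34, limma adjusted p = 1.49e-06) and Cyba, its membrane partner, from 544, 629 and 577 to 994, 1056 and 1023 (0.81 ± 0.12, limma adjusted p = 3.94e-05). Of the 7 listed oxidase genes 3 rose and 1 fell.

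The lists of primary granules and of later granules had medians of opposite sign, but not every gene followed its list. Of 8 genes in the list of primary granules, made first, 6 fell and 2 rose, with a median of −1.14. The falls of this list include Gfi1, the repressor described above, which is not a granule protein. Srgn, the proteoglycan that packs granule proteins, fell from 1121, 1118 and 1072 to 313, 341 and 319.5 (−1.76 ± 0.11, limma adjusted p = 3.86e-09). The 3 values within each group were nearly equal. Prss57, a serine protease of the same granules, rose from 0.649, 1.79 and 1.3 to 2.4, 8.55 and 3.05 (1.43 ± 0.45, limma adjusted p = 0.014), with replicate 2 the highest of both groups, and lost its call without DMSO replicate 1 (1.16) or MI-2-2 replicate 2 (0.93). Mpo, myeloperoxidase, was at 0.400, 0.0276 and 0.126 with DMSO and at 6.57, 10.7 and 2.83 with MI-2-2 (3.27 ± 0.32, limma adjusted p = 5.88e-07), so both rises of this list were among its genes of low level.

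Of 20 genes of specific and tertiary granules, made later, 18 rose and none fell, with a median of 2.73. Of the 20, 2 were included only through the treated libraries. Mmp8, neutrophil collagenase, went from 1.84, 3.93 and 2.3 to 93.2, 90.7 and 124 (5.05 ± 0.21, limma adjusted p = 1.56e-11), and Chi3l1, a chitinase-like protein, from 0.0973, 1.08 and 0.253 to 30.6, 50.7 and 41.4 (5.51 ± 0.31, limma adjusted p = 9.02e-10). Lcn2, which traps bacterial iron carriers, rose from 118, 213 and 178 to 585, 695 and 659 (1.96 ± 0.18, limma adjusted p = 2.39e-07). The other 2 genes, Cd177 (0.61 ± 0.26, limma adjusted p = 0.0587) and Hp (−0.36 ± 0.18, limma adjusted p = 0.103), overlapped between the groups. Cd177 was called higher without DMSO replicate 1 (0.94), and Hp lower without MI-2-2 replicate 3 (−0.53). The response was more negative than in MLL-AF9 cells for 14 of the 20, where the median was 4.80, and than in MLL-AF1p cells for 4. For all 10514 genes these shares were 24.9% and 20.1%, so the 4 are no more than the share of all genes. The 9 neutrophil markers together stood at 2300 to 2940 RPKM with DMSO and 18300 to 20000 with MI-2-2. Most of this was S100a8, S100a9 and Ngp, and the part of the markers in these results was not tested.

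Of 8 S100 genes, calcium-binding proteins of myeloid cells, 7 rose and none fell. S100a6 went from 4.76, 4.85 and 2.63 to 54.5, 33.4 and 69.9 (3.51 ± 0.44, limma adjusted p = 7.15e-06) and S100a10 from 14.1, 10.1 and 14.3 to 135, 96.3 and 141 (3.22 ± 0.18, limma adjusted p = 8.34e-10). S100a4 depended on the library: it was at 5.2, 0.0704 and 1.57 with DMSO and 30.7, 4.9 and 26 with MI-2-2 (3.12 ± 0.96, limma adjusted p = 0.0118), so that replicate 2 was low in both groups and the groups overlapped, and it was not called without DMSO replicate 2 (2.26) or MI-2-2 replicate 1 (2.66). Of 10 stefins and cystatins, inhibitors of cathepsins, 8 rose and 1 fell, led by Stfa3 (from 1.04, 3.32 and 1.55 to 96.3, 91 and 196, 5.71 ± 0.37, limma adjusted p = 3.81e-09) and Stfa2 (4.77), near-identical copies that can exchange reads. Of 6 matrix metalloproteinase and inhibitor genes 5 rose, led by Mmp12, the elastase of macrophages, from 3.55, 0.401 and 0.584 to 118, 91.2 and 134 (6.17 ± 0.38, limma adjusted p = 2.18e-09). DMSO replicate 1 held most of its control signal. Adam8 rose from 8.5, 10.7 and 9.19 to 60.6, 50.9 and 73.8 (2.63 ± 0.18, limma adjusted p = 6.61e-09).

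Receptors of the cell surface rose by family. Of 16 lectin and scavenger receptors 13 rose and 1 fell (median 2.05), and 5 were included only through the treated libraries. Mrc1, the mannose receptor, went from 0.0618, 0.152 and 0.0937 to 40.2, 38.4 and 32.3 (5.96 ± 0.18, limma adjusted p = 4.57e-13), and Clec4d, a receptor for mycobacterial glycolipid, from 6.58, 6.66 and 5.19 to 107, 62.3 and 98.2 (3.72 ± 0.25, limma adjusted p = 5.61e-09). Of 12 Toll-like receptor genes and cofactors 9 rose and none fell (median 1.56), and 3 of the 12 were included only through the treated libraries. Those that sense nucleic acids in endosomes were among them: Tlr7, for single-stranded RNA, went from 2.29, 1.37 and 1.17 to 22.1, 13.4 and 18.8 (3.15 ± 0.26, limma adjusted p = 8.23e-08), Tlr9, for DNA, from 0.286, 0.458 and 0.258 to 3.32, 2.24 and 2.67 (1.96 ± 0.14, limma adjusted p = 9.29e-09) and Tlr13, for bacterial ribosomal RNA, from 19.4, 15.6 and 14.1 to 58.6, 41.2 and 53.8 (1.61 ± 0.13, limma adjusted p = 4.55e-08).

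Chemoattractant receptors gave 8 rises and 1 fall among 10, with a median of 2.08, and 4 of the 10 were included only through the treated libraries. C3ar1, the receptor of complement C3a, went from 0.261, 0.657 and 0.499 to 15.3, 12.6 and 13.7 (3.9 ± 0.16, limma adjusted p = 1.17e-11), Fpr2, a formyl peptide receptor, from 0.127, 0.300 and 0.138 to 7.69, 6.38 and 16.7 (3.85 ± 0.24, limma adjusted p = 3.01e-09) and Ltb4r1, the leukotriene B receptor, from 4.36, 9.86 and 7.68 to 33.5, 60.1 and 35.3 (2.49 ± 0.38, limma adjusted p = 4.84e-05). MI-2-2 replicate 3 was the highest library for Fpr2 and replicate 2 for Ltb4r1. For C5ar1, the C5a receptor, at 9.3, 2.67 and 4.24 and 11.1, 10.8 and 12.7 (1.19 ± 0.43, limma adjusted p = 0.0266), DMSO replicate 1 came close to the treated libraries. Its call was lost without DMSO replicate 2 (0.82) or 3 (1.11) or MI-2-2 replicate 1 (1.21) or 3 (1.12).

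Growth factor receptors rose in 8 of 11 cases with no fall, and 1 of the 11 was included only through the treated libraries. Csf3r, the receptor of granulocyte colony-stimulating factor, went from 1.45, 3.5 and 2.29 to 8.99, 12.5 and 12.3 (2.06 ± 0.31, limma adjusted p = 4.73e-05), Il6ra from 13.3, 11.1 and 11.2 to 22.2, 18.4 and 19.8 (0.74 ± 0.21, limma adjusted p = 0.00678) and Tgfbr2 from 9.63, 8.14 and 8.39 to 16.7, 15.5 and 15.7 (0.84 ± 0.093, limma adjusted p = 1.86e-06). Kit, the stem cell factor receptor, which matured myeloid cells lose, was called higher (9.38, 9.66 and 9.33 and 13.1, 14.3 and 10.3, 0.38 ± 0.12, limma adjusted p = 0.0158), but not without MI-2-2 replicate 1 (0.34) or 2 (0.28). Among 12 integrins 4 rose and 5 fell, or 5 and 3 with median centring. Itgax, CD11c of macrophages and dendritic cells, went from 0.75, 0.523 and 0.494 to 13.8, 13.6 and 12.8 (3.68 ± 0.11, limma adjusted p = 2.69e-13), and Itgb7, which pairs with the homing integrins, from 1.62, 2.88 and 2.57 to 0.376, 0.609 and 0.348 (−1.58 ± 0.17, limma adjusted p = 1.27e-06). Of 6 Fc receptor genes 3 rose, all by less than 1, among them Fcgr3 (from 263, 225 and 235 to 384, 348 and 371, 0.61 ± 0.073, limma adjusted p = 4.60e-06).

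The cytoskeleton and adhesion genes of spreading cells rose in 20 of 23 cases, with 1 fall and a median of 0.92. Capg, which caps actin filaments, went from 8.08, 5.53 and 6.43 to 62.1, 46.4 and 67.1 (3.04 ± 0.15, limma adjusted p = 1.69e-10) and Tpm4, a tropomyosin, from 5.99, 7.31 and 5.75 to 68.4, 58.8 and 80.9 (3.35 ± 0.17, limma adjusted p = 2.20e-10). Emp1, an epithelial membrane protein gene, was listed at 0 in all 3 DMSO libraries and at 10.4, 9.67 and 10.4 with MI-2-2. The fall was Mylk, myosin light chain kinase, from 30.7, 27.8 and 29.5 to 3.09, 2.51 and 2.26 (−3.27 ± 0.13, limma adjusted p = 1.22e-11).

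Most of the included genes for secreted signals of macrophages rose. Of 8 CC chemokines 6 rose and none fell (median 3.13), and 4 of the 8 were included only through the treated libraries. Those not called were Ccl3, at 661, 295 and 408 and 521, 407 and 484 (0.12 ± 0.47, limma adjusted p = 0.842), and Ccl9 (0.14 ± 0.16, limma adjusted p = 0.469). Both overlapped between the groups. Ccl1, Ccl8, Ccl17, Ccl22 and Ccl24 were under the level needed to be included. Ccl7, which attracts monocytes, was at 0.0412, 0.0881 and 0.0446 with DMSO and 51.4, 107 and 64 with MI-2-2 (6.99 ± 0.18, limma adjusted p = 9.44e-14). Ccl6, another chemokine of macrophages, went from 65.3, 121 and 97.2 to 3176, 2568 and 2743 (4.93 ± 0.21, limma adjusted p = 3.19e-11). Ccl4 rose from 25.3, 9.01 and 11.9 to 177, 149 and 159 (3.48 ± 0.35, limma adjusted p = 7.23e-07), with DMSO replicate 1 the highest control. Spp1, osteopontin, which is among the largest rises, went from 25.5, 6.71 and 7.21 to 1142, 1175 and 1346 (6.75 ± 0.58, limma adjusted p = 1.00e-07).

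Cytokine genes and feedback genes of NF-kB gave 16 rises and 2 falls among 20, with a median of 1.20, and 3 of the 20 were included only through the treated libraries. Il1a went from 0.300, 0.143 and 0.0903 to 7.21, 5.84 and 13.4 (3.71 ± 0.30, limma adjusted p = 4.64e-08), with MI-2-2 replicate 3 the highest. Tnf rose from 12, 8.08 and 8.52 to 37.9, 35.8 and 40.1 (1.95 ± 0.19, limma adjusted p = 4.13e-07), Csf1, the macrophage growth factor, from 2.97, 6.58 and 4.46 to 20.2, 23.3 and 25.4 (2.24 ± 0.27, limma adjusted p = 5.90e-06) and Il1rn, the interleukin 1 antagonist, from 5.58, 3.31 and 4.29 to 16.9, 15.4 and 23.6 (1.97 ± 0.22, limma adjusted p = 2.01e-06). Of 14 immediate early genes 11 rose and none fell (median 2.0), 4 of the 14 included only through the treated libraries. Fos went from 0.74, 0.337 and 0.597 to 50.9, 47.6 and 56.3 (5.64 ± 0.12, limma adjusted p = 1.16e-14), Jun from 7.79, 2.66 and 4.01 to 38.8, 29.9 and 36.3 (2.85 ± 0.27, limma adjusted p = 3.38e-07) and Atf3, a stress factor, from 1.7, 3.27 and 2.33 to 26.4, 24.1 and 24.6 (3.15 ± 0.16, limma adjusted p = 2.28e-10). For 11 of the 14 the response was more negative than in MLL-AF9 cells, and for 7 more positive than in MLL-AF1p cells.

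Of the 8 macrophage markers included in the comparison 6 rose, Ccr2 of inflammatory monocytes fell, and the summed level of the listed markers was 2010 to 4060 RPKM with DMSO and 8520 to 12200 with MI-2-2. Most of this sum was Lyz2 (3770, 1770 and 2320, and 11400, 7780 and 10200). The part of the markers in the results on lysosomes, receptors and secreted signals was not tested. The complement gene C1qa, a marker of resident macrophages, was under 0.1 RPKM in all 6 libraries. Of the endothelial list, Cdh5, Tek and Emcn were under 0.1 RPKM in all 6, while Pecam1, which myeloid cells also carry, fell from 53.8, 69.9 and 59.2 to 22.1, 27.2 and 24.4 and Vwf rose from 0.547, 0.505 and 0.451 to 11.1, 10.3 and 9.06.

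Most of the listed interferon-stimulated genes fell in MLL-AF6 cells. They are switched on by interferons and act against viruses. Of 27 genes 21 fell and 1 rose (Bst2), with a median of −0.71, and 19 to 21 fell under every other setting. Among the 27, 1 was included only through the DMSO libraries. The other genes of the 35 listed, Ifit1, Mx1 and Rsad2 among them, were under the level needed to be included. Oas2, which senses double-stranded RNA and makes short oligoadenylates, was at 8.32, 6.89 and 7.47 with DMSO and 1.01, 1.94 and 1.71 with MI-2-2 (−2.0 ± 0.19, limma adjusted p = 4.08e-07). Cmpk2, a mitochondrial nucleotide kinase, went from 4.47, 4.45 and 4.21 to 0.786, 1.27 and 0.782 (−1.77 ± 0.19, limma adjusted p = 1.25e-06). Oas3 fell from 4.04, 5.17 and 4.96 to 0.895, 1.13 and 1.12 (−1.75 ± 0.26, limma adjusted p = 3.57e-05) and Gbp3, a GTPase against intracellular pathogens, from 11.5, 17 and 13.8 to 4.66, 5.77 and 4.03 (−1.45 ± 0.15, limma adjusted p = 8.96e-07). No treated library reached a control in these 4 genes. Isg15, a ubiquitin-like modifier, fell from 4.54, 5.88 and 5.52 to 2.32, 3.42 and 2.57 (−0.84 ± 0.24, limma adjusted p = 0.00849), with a voom adjusted p of 0.0694 on recovered reads.

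In the other constructs the list lay higher. The median of the same 27 genes was 1.32 in MLL-AF9 cells and 0.32 in MLL-AF1p cells, and the response in MLL-AF6 cells was more negative than in MLL-AF9 cells for 26 genes and than in MLL-AF1p cells for 18. For all 10514 genes these shares were 24.9% and 20.1%. Oas2 rose by 2.52 in MLL-AF9 and 0.61 in MLL-AF1p, a difference of −4.52 from the one (limma, adjusted p = 1.87e-08) and −2.61 from the other (limma, adjusted p = 9.76e-06). Oas1a fell from 20.9, 20.4 and 20.7 to 11.2, 12.4 and 13.8 here (−0.71 ± 0.11, limma adjusted p = 4.22e-05) and rose by 1.06 and 0.41 there. Cxcl10, an interferon-inducible chemokine outside the list, rose in MLL-AF6 cells from 1.32, 1.41 and 1.56 to 3.4, 5.28 and 2.86 (1.14 ± 0.27, limma adjusted p = 0.00247). Ifi27l2a, also outside the list, rose there too (1.58 ± 0.24, limma adjusted p = 4.45e-05).

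**Figure D4:**
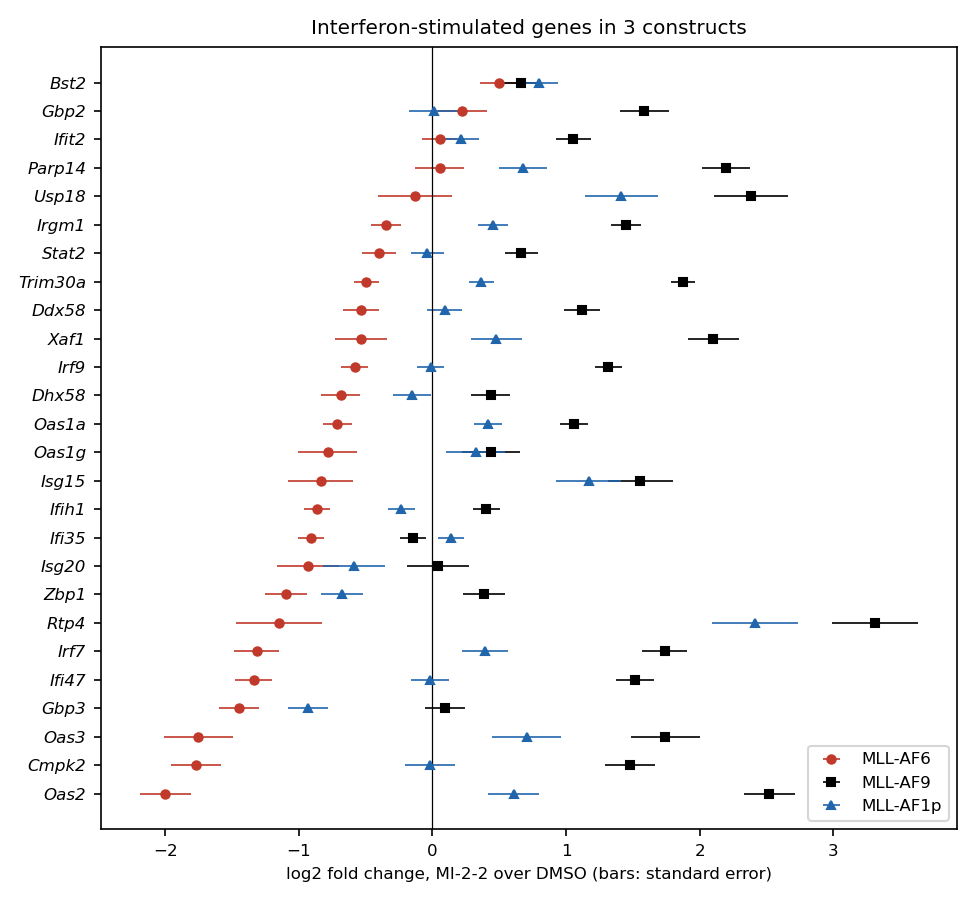
Log2 fold change, MI-2-2 over DMSO, of 26 of the 27 interferon-stimulated genes in MLL-AF6 (red), MLL-AF9 (black) and MLL-AF1p cells (blue), with standard errors as bars. In MLL-AF6 cells the values run from −2.0 (Oas2) to 0.50 (Bst2), and the median of all 27 is −0.71 against 1.32 and 0.32.

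Promoter windows of 4 of the falling genes are shown because interferon factors read the letters GAAA, any 2 bases and GAAA again, sought on both strands of the RefSeq windows described for the antioxidant genes. Capitals mark the first match in each window.
Isg15, chr4:156200862-156200921, minus strand: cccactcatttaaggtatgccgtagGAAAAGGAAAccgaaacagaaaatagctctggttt
Oas1a, chr5:120907511-120907570, minus strand: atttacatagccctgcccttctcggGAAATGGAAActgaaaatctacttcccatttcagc
Oas3, chr5:120777700-120777759, minus strand: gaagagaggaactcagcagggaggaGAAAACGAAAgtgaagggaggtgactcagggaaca
Gbp3, chr3:142559974-142560033, plus strand: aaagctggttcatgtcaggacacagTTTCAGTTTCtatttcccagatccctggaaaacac
The matches of Isg15, Oas1a and Oas3 read along the gene and start 78, 20 and 75 bases before the RefSeq start, and that of Gbp3 lies on the opposite strand, 45 bases before. The letters occur in 3.99% of the 27025 genes with an entry and in 3.72% of the 8409 included genes. Of the 27 listed genes 7 had no entry, too large a part for a share to stand for the list. Bst2, the only gene of the list that rose, held the letters too, so they were not confined to genes that fell. The windows are those of the reference genome and say nothing of which factor was bound.

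Antigen presentation changed in part. Of 15 genes of MHC class I and the immunoproteasome 6 fell and 2 rose, and 4 fell with median centring. Tap2, a subunit of the peptide transporter, went from 133, 149.9 and 137 to 55, 65.4 and 58.2 (−1.23 ± 0.12, limma adjusted p = 7.56e-07), and Psmb8, an immunoproteasome subunit, from 98.7, 120.4 and 115 to 73.8, 80 and 77 (−0.53 ± 0.099, limma adjusted p = 3.20e-04). Of 9 class II genes 5 fell and 1 rose, and 3 of the 9, H2-Aa and H2-Ob among them, were included only through the DMSO libraries, so that they were bound to be lower with MI-2-2. H2-Aa, a class II chain, fell from 11.4, 6.45 and 10.7 to 0.395, 0.0848 and 0.400 (−3.65 ± 0.28, limma adjusted p = 3.04e-08), H2-Ab1, its partner, from 25, 20.7 and 28.3 to 1.93, 2.05 and 4.43 (−3.0 ± 0.37, limma adjusted p = 5.54e-06) and H2-Ob, a modulator of peptide loading, from 4.32, 4.9 and 4.89 to 0.719, 0.408 and 0.773 (−2.21 ± 0.17, limma adjusted p = 3.43e-08). Cd74, the invariant chain that escorts class II molecules, rose from 2.19, 0.852 and 0.863 to 18.1, 17.4 and 25.1 (3.58 ± 0.22, limma adjusted p = 2.87e-09). The chains and their escort were thus high in opposite groups, in all 3 libraries of each.

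Stress and survival genes moved little as lists. Of 17 p53 target genes 7 fell and 3 rose. Sesn1, a sestrin, fell from 11.3, 11.2 and 12 to 4.88, 4.57 and 4.78 (−1.19 ± 0.095, limma adjusted p = 4.54e-08) and Plk2, a polo-like kinase, rose from 0.552, 0.0377 and 0.165 to 9.3, 7.65 and 8.04 (3.61 ± 0.22, limma adjusted p = 1.72e-09), with DMSO replicate 1 holding most of the control signal. Of 15 genes of the Bcl2 family 5 fell and 4 rose. Of its protectors, Bcl2l2 fell and 4 rose, among them Mcl1 from 120.0, 102 and 108 to 177, 144 and 185 (0.61 ± 0.096, limma adjusted p = 6.97e-05), Bcl2l1, the gene of Bcl-xL, from 15, 15.8 and 16.2 to 26.3, 28.2 and 28.2 (0.80 ± 0.063, limma adjusted p = 4.20e-08) and Bcl2a1b, one of several near-identical A1 genes, from 2.5, 4.98 and 4.21 to 16.4, 25.4 and 25.3 (2.4 ± 0.36, limma adjusted p = 3.96e-05). Bmf, a trigger of cell death, fell from 28.8, 14.9 and 19.8 to 9.91, 6.33 and 8.57 (−1.27 ± 0.26, limma adjusted p = 5.98e-04). Of 16 cytosolic chaperone genes 10 fell and none rose (median −0.35), led by Hsp90aa1 (from 214, 286 and 267 to 137, 152 and 143, −0.82 ± 0.095, limma adjusted p = 3.14e-06). Replicate 2 of these 16 exceeded replicate 1 by a median of 0.28 with DMSO and 0.11 with MI-2-2. Of 20 genes of the endoplasmic reticulum 6 fell and 4 rose, which became 4 and 7 with median centring. As 0 to 7 rose when single libraries were left out, no direction is given for that list. Its largest change was the fall of Xbp1 (from 196, 184 and 178 to 109.9, 107 and 101, −0.81 ± 0.074, limma adjusted p = 2.19e-07).

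The largest changes of single genes included several outside the lists. Anpep, the aminopeptidase CD13 of myeloid cells, rose from 0.528, 0.349 and 0.322 to 69.5, 53.3 and 49.1 (6.0 ± 0.16, limma adjusted p = 9.44e-14). Among the falls, Akr1c18, a steroid dehydrogenase with close paralogs, went from 40.5, 13.1 and 32.4 to 0.856, 0.154 and 0.595 (−4.74 ± 0.36, limma adjusted p = 2.26e-08), Il2ra, CD25 of the interleukin 2 receptor, from 18, 13.4 and 15.3 to 1.04, 0.554 and 0.88 (−3.61 ± 0.19, limma adjusted p = 3.23e-10) and Irx5, an Iroquois homeobox gene, from 7.73, 4.86 and 5.3 to 0.0542, 0.114 and 0.13 (−3.41 ± 0.13, limma adjusted p = 6.42e-12). Frzb, a secreted antagonist of Wnt signals, fell from 19.7, 31.5 and 23.4 to 2.11, 2.38 and 1.65 (−3.3 ± 0.15, limma adjusted p = 5.02e-11), and Fgf10, a growth factor, from 41.7, 31.1 and 36.7 to 2.45, 1.91 and 2.23 (−3.77 ± 0.22, limma adjusted p = 1.18e-09). Irx5 and Frzb fell in MLL-AF1p cells too (−2.04 and −3.14) and were not called in MLL-AF9 cells (−0.09 and −0.15), where their mean with DMSO was only 0.0393 and 0.104 RPKM, too low for a fall to show.

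Many responses differed in size from those of the other constructs. Compared with MLL-AF9 cells, 879 of the 10514 genes responded more positively in MLL-AF6 cells (8.36%) and 2622 more negatively (24.9%), and compared with MLL-AF1p cells 1233 (11.7%) and 2109 (20.1%). Of all 11238 genes tested the shares were 9.02% and 24% against MLL-AF9 and 11.6% and 19.5% against MLL-AF1p. On their own, MLL-AF9 cells had 29.1% of the 10514 genes called higher and 27.6% called lower, and MLL-AF1p cells 19.3% and 26.1%. With median centring the counts against MLL-AF9 were 1488 and 1250, so the larger of the 2 counts depended on the scaling. The counts given for lists are those under the authors' scaling. More positive than in both were 390 genes (3.71%), and more negative than in both 970 (9.23%). MLL-AF1p libraries were deeper, at 48.88 to 56.3 M counted reads.

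Of the genes with a more positive response than in both, Fstl1, a secreted glycoprotein, led. It went from 1.12, 0.518 and 0.386 to 322, 194 and 299 in MLL-AF6 cells (7.87 ± 0.23, limma adjusted p = 2.68e-13), rose in MLL-AF1p cells (4.35) and was not called in MLL-AF9 cells (−0.32). Gas6, the ligand of the Axl and Mer receptors by which macrophages take up dead cells, went from 0.228, 0.515 and 0.192 to 16.8, 11.2 and 9.78 (4.0 ± 0.19, limma adjusted p = 8.18e-11), against −0.28 in MLL-AF9, not called, and 1.28 in MLL-AF1p. The mean of Gas6 with DMSO was 0.312 RPKM here and 4.62 in MLL-AF9 cells. Basp1, a membrane-bound signalling protein, rose from 0.463, 0.838 and 0.636 to 23.7, 20.8 and 20.7 (4.29 ± 0.19, limma adjusted p = 3.32e-11), against 0.54 and 0.91. Il7r, the interleukin 7 receptor, rose from 0.185, 0.0439 and 0.0556 to 11.4, 7.1 and 12.7 (4.17 ± 0.22, limma adjusted p = 3.10e-10), against 1.83 and 1.89. Stac2 (4.63) and the ubiquitin ligase gene Rnf128 (3.46) completed the 8 that the naming rule gave, with Hpgds and Ctsk.

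On the negative side, Scin, the actin-severing protein scinderin, fell from 13.6, 4.4 and 8.91 to 0.501, 0.207 and 0.341 (−3.37 ± 0.25, limma adjusted p = 2.35e-08) and was not called in MLL-AF9 (−0.10) or MLL-AF1p cells (−0.38), where its mean with DMSO was only 0.0495 and 0.16 RPKM, too low for a fall to show. Smoc1, a matrix protein, fell from 8.16, 7.39 and 8.03 to 0.369, 0.437 and 0.514 (−3.16 ± 0.086, limma adjusted p = 1.34e-13), against −0.52 and −0.91, and C2cd4a from 16.3, 8.69 and 12.8 to 0.746, 0.235 and 0.461 (−3.73 ± 0.29, limma adjusted p = 3.17e-08), against −1.47 and −1.44. Chi3l3 and Ifi27l2a rose in all 3 constructs but less here, by 4.59 against 6.17 and 6.53, and by 1.58 against 3.55 and 4.8. On reads recovered from the RPKM values, tested with voom, the differences of Scin from both constructs, of Ctsk from both and of Gas6 and Il7r from MLL-AF1p did not pass (limma, adjusted p = 0.0807 to 0.813). Wfdc18 was at 7.43, 5.36 and 6.02 and 5.42, 8.49 and 5.14 here without a call and rose in the others (3.06 and 1.6).

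**Figure D5:**
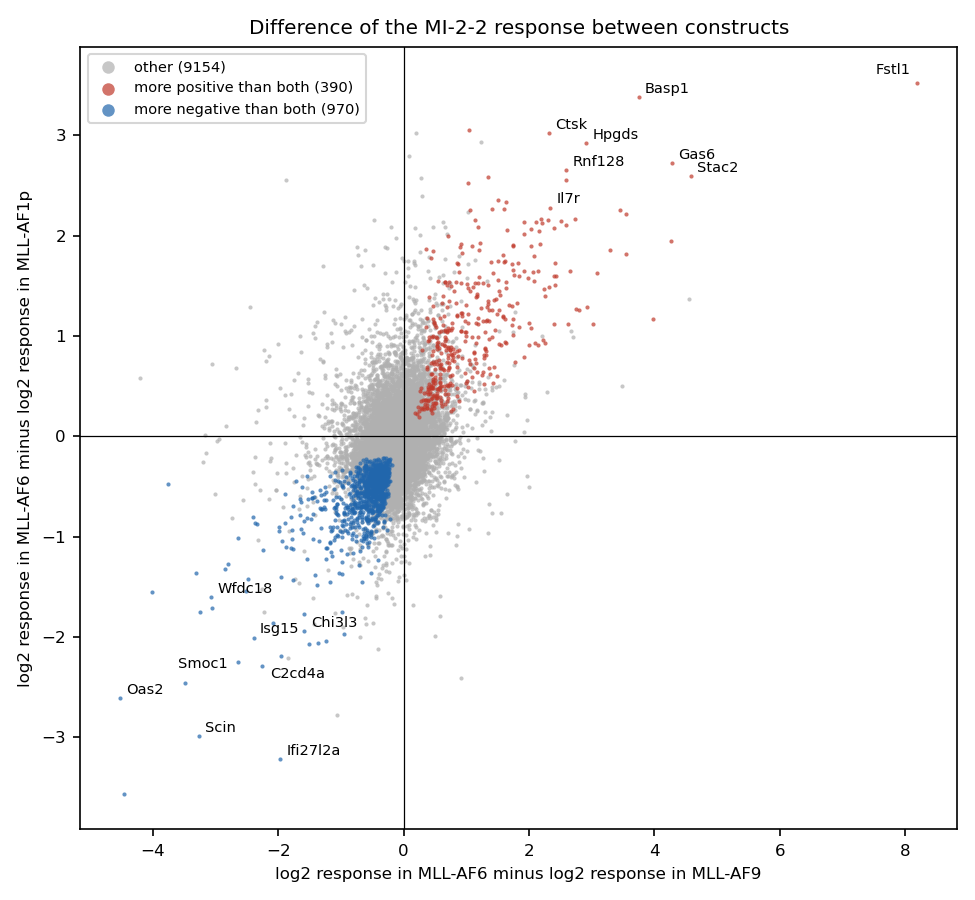
Each dot is 1 of 10514 genes, with the log2 response to MI-2-2 in MLL-AF6 cells minus that in MLL-AF9 cells on the x axis and minus that in MLL-AF1p cells on the y axis. Red dots are the 390 genes more positive than in both, blue dots the 970 more negative than in both, and Fstl1 and Oas2 lie near the far ends.

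Opposite directions were rare. Called higher in MLL-AF6 cells and lower in both others were 16 genes (0.152%), and called lower here and higher in both others 68 (0.647%). All of the first but Insl6 (1.26) rose by less than 1. Tbca, a tubulin folding cofactor, went from 86.6, 97.3 and 88.7 to 131, 120.0 and 118 (0.44 ± 0.065, limma adjusted p = 4.08e-05), Mgst3, a glutathione transferase, from 9.95, 8.38 and 10.3 to 14.8, 13.7 and 16.6 (0.63 ± 0.12, limma adjusted p = 2.66e-04) and Ptgr1, a prostaglandin reductase, from 38.9, 34.7 and 36.4 to 55.7, 44.8 and 61.6 (0.54 ± 0.11, limma adjusted p = 5.15e-04). Among the second, besides Oas2, Isg15 and Oas1a, were Ramp1, a receptor partner of the CGRP peptide (from 29.8, 26.9 and 26.2 to 18.4, 18.9 and 17.6, −0.58 ± 0.066, limma adjusted p = 2.64e-06), and Ptpn7, a phosphatase of MAP kinases (from 111, 116 and 114 to 73.1, 80.1 and 75.5, −0.57 ± 0.065, limma adjusted p = 2.44e-06). Called higher in all 3 constructs were 924 genes (8.79%) and called lower in all 3 were 1200 (11.4%), while 325 (3.09%) were called higher and 1454 (13.8%) lower in MLL-AF6 cells and in neither other construct in that direction. These last counts compare calls and are no test of a difference.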

How the data were processed

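Poly(A) RNA was sequenced as 18 unstranded TruSeq libraries, per the labels' protocols, which name both single-end and paired-end runs. The authors' deposited table holds RPKM per gene, made with tools whose roles are not given. Those listed, per the submitters' processing notes, are HTSeq, edgeR, Bowtie2 (2.0.0.7) and CASAVA (1.8.2), with mm9 as the genome. Values were whole multiples of 1 read within a tolerance of 0.05, which gave the depths. Because 19 gene rows carry only a 5-digit number as a name, they were counted and not named.

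Differences were fitted with limma 3.58.1 (R 4.3.3) on log2(RPKM + 0.5) over all 18 libraries, with a mean for each of 6 groups and 12 residual degrees of freedom, for genes of at least 1 RPKM in 3 or more libraries. P-values were Benjamini-Hochberg adjusted over all 11238 genes, and differences between constructs are contrasts of the same fit. The steps were tested on simulated data. Alternatives covered the pseudocount (0.1), the filter, scaling, prior variance, a replicate block, voom, the 6 libraries alone and each library left out. Thinning to the smallest library and scaling without the 50 genes with the most reads were chosen after seeing the data.

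Members and lists were chosen with earlier results of these data known. Named genes are the 10 largest rises and falls at a mean of at least 5 RPKM in the higher group, per list up to 4 called genes (at least 2 RPKM) and 2 uncalled ones, the 8 per direction that differ most from both other constructs and up to 6 per direction with opposite calls. Genes outside this rule are Ctsd and Atp6v1a, members of lists counted singly, and those shown for a cell type or a contrast. A few genes that the rule gave are not reported here, but all counts and medians of lists include them. Promoters are RefSeq's of GRCm38.p6, a later build than the authors', matched for 8409 of the 10514 genes. Figures were drawn with matplotlib 3.10.9 (Python 3.11.15).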

Additional observations from a re-analysis of the deposited data

Results flagged for a closer look

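The response to MI-2-2 differed between constructs in a test of the difference itself (limma, adjusted p under 0.05) for many of the 10514 genes. It was more positive in MLL-AF6 than in MLL-AF9 cells for 879 genes and more negative for 2622, and more positive than in MLL-AF1p cells for 1233 and more negative for 2109.

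For the genes that follow, the value is the smaller of the differences in log2 response from the other constructs. More positive than in MLL-AF1p cells were Fstl1 by 3.53, Basp1 by 3.38, Gas6 by 2.72, Stac2 by 2.59 and Il7r by 2.28. More positive than in MLL-AF9 cells were Hpgds by 2.91, Rnf128 by 2.59 and Ctsk by 2.32. On the negative side, the difference from MLL-AF1p cells was −2.99 for Scin, −2.61 for Oas2, −2.25 for Smoc1, −2.01 for Isg15 and −1.60 for Wfdc18. From MLL-AF9 cells it was −2.26 for C2cd4a, −1.97 for Ifi27l2a and −1.58 for Chi3l3.

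Of genes called in opposite directions, 6 that rose in MLL-AF6 cells alone and 6 that fell there alone were named. The smaller difference of the risers was 1.74 for Insl6, a relaxin-like peptide gene, 0.76 for Ttc3, a ubiquitin ligase, and 0.57 for Rabl5 against MLL-AF9 cells, and 0.99 for Mgst3, 0.81 for Ptgr1 and 0.67 for Tbca against MLL-AF1p cells. For the genes that fell, besides Oas2 and Isg15, it was −1.13 for Oas1a, −0.78 for Ramp1 and −0.75 for Evi2b against MLL-AF1p cells and −0.85 for Ptpn7 against MLL-AF9 cells. In MLL-AF6 cells the rise of Rabl5 (0.23) lost its call without DMSO replicate 1 (0.24) or 3 (0.15) or MI-2-2 replicate 2 (0.25) or 3 (0.17), and that of Ttc3 (0.34) without DMSO replicate 2 (0.29) or 3 (0.35) or MI-2-2 replicate 1 (0.26).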

How the results depend on the processing

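No gene called in MLL-AF6 cells was called the other way under any alternative. Rises numbered 1666 to 2042 and falls 3567 to 4511 when each of the 18 libraries was left out in turn, and 1718 to 2288 and 3253 to 4612 under the other settings. Against MLL-AF9 cells, the genes with a more positive response numbered 1488 with median centring, and those with a more negative one 1250 with median centring and 1411 with quantile normalization. Without single libraries these were 733 to 1112 and 2123 to 3259, and against MLL-AF1p cells 994 to 1499 and 1670 to 2548. Whether the numbers pair the replicates is not known, and the main fit used no pairing. Deviations of same-numbered DMSO and MI-2-2 libraries correlated over genes at 0.535, 0.585 and −0.025. DMSO replicate 1 and MI-2-2 replicate 2 correlated at −0.603, and DMSO replicate 2 and MI-2-2 replicate 1 at −0.507. DMSO replicate 3 correlated best with MI-2-2 replicate 2 (0.132). Replicate 3 lay between replicates 1 and 2 on the second principal component in both groups, so its value cannot decide. A replicate block within each construct gave 2108 rises and 4612 falls.

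Of the named genes, Wfdc18, not called in MLL-AF6 cells (−0.01), changed sign with median centring (0.078), quantile normalization (0.092), thinned reads (0.044) and without the 50 genes with the most reads (0.070), and ranged from −0.218 to 0.119 when single MLL-AF6 libraries were left out. The cause was not tested. Voom on recovered reads, which adds no 0.5 RPKM, moved genes that were near 0 in 1 group by over 1.5 times, for instance Msr1 to 8.72, Ch25h to 7.52, Il7r to 6.93, Maf to 6.41, Mpo to 5.53, Klf4 to 5.20, Cdkn1c to 4.27, Tlr9 to 3.07, Meis3 to 1.64, Itgb7 to −2.41 and Irx5 to −5.89. Changes of genes with few reads in a group are limited by depth, 21.97 to 30.67 M reads per library here.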
